A study of Mus musculus with 8 samples.

Results

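The proteasome subunit genes are the 45 genes, of 24421 gene symbols counted per library, whose symbol is Psma, Psmb, Psmc, Psmd, Psme, Psmf or Psmg followed by a number, without the immunoproteasome genes Psmb8, Psmb9 and Psmb10. Their RNA was measured by RNA-seq in leukemic bone marrow cells of C57BL/6 mice that had been transformed with MLL-AF9, a fusion oncogene of acute leukemia, and sorted for a high level of c-KIT, a receptor found on immature blood cells. Cells of Ikzf2f/f mice, labelled Ikzf2 WT, gave 2 libraries, and cells of Ikzf2Δ/Δ mice, labelled Ikzf2 KO, gave 2 libraries. Ikzf2 encodes Helios, which is a DNA-binding zinc finger protein related to Ikaros. All 4 libraries share MLL-AF9, the c-KIT sort and the thawing of frozen marrow before the sort. The labels used here name neither a Cre line, nor the age of the mice, nor whether replicates came from separate mice, so p-values cover only the spread among the libraries, and part of it may be technical.

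The proteasome is the protease that degrades proteins tagged with ubiquitin. Its barrel-shaped core is built of outer alpha rings and inner beta rings, and the active sites lie in the beta rings on Psmb5, Psmb6 and Psmb7. A cap of ATPases (Psmc genes) and non-ATPases (Psmd genes) binds the tagged protein, removes the ubiquitin, unfolds the chain and feeds it into the core. Assembly chaperones (Psmg1 to Psmg4 for the core, Psmd5, Psmd9 and Psmd10 for the cap) build the particle but are not part of it, and other activators (Psme genes) can replace the cap. In many cells the subunit genes are raised together by the factor Nfe2l1 when proteasome activity is short, and blood cells also use the immunoproteasome, in which Psmb8, Psmb9 and Psmb10 replace the constitutive active subunits.

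Because members of a complex are often set by shared promoter elements, the 250 bases upstream of the annotated starts were taken from RefSeq (GRCm38.p6), which held 40 windows for 37 of the 45 genes. In the 4 windows printed here capitals mark TGACNNNGC, the core of the element that Nfe2l1 and Nfe2l2 bind, and CCGGAAG, the core of an ETS factor element, each on either strand. They belong to genes that were lower in both KO libraries: Psmb5 (chr14:54617996-54618245, minus strand), Psmc1 (chr12:100109952-100110201, plus strand), Psmd1 (chr1:86064369-86064618, plus strand) and Psmd12 (chr11:107479278-107479527, plus strand). These 4 do not represent the 40 windows. Psmc5, whose log2 fold change (-0.25) was more negative than that of Psmc1 (-0.23), held neither word.
Psmb5: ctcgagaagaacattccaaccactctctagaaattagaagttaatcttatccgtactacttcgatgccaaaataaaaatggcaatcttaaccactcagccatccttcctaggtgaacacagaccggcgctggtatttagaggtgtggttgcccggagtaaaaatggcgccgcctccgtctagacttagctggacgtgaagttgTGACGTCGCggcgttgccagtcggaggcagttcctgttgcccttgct
Psmc1: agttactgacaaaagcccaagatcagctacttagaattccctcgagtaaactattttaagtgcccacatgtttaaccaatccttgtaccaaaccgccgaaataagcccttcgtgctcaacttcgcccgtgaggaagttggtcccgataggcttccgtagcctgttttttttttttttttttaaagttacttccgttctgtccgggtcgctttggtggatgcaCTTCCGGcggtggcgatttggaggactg
Psmd1: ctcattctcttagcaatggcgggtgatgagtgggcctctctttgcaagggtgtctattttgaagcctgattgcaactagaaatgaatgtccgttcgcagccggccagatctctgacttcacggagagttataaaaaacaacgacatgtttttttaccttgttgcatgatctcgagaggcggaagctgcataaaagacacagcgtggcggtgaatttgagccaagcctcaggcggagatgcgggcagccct
Psmd12: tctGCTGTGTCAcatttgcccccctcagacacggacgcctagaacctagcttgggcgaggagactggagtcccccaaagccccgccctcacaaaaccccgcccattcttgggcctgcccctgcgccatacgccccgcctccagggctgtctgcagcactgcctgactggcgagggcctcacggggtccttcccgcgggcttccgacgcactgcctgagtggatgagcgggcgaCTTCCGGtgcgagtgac

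Psmb5 held TGACNNNGC once, Psmc1 held CCGGAAG once, Psmd12 held both, and Psmd1 held neither. TGACNNNGC was found in 5 of the 40 windows (12.5%), those of Psmb5, Psmb6, Psmc6, Psmd9 and Psmd12, against 10.2% of all 32851 windows and 12% of the 12157 windows of genes tested here. CCGGAAG was found in 13 windows (32.5%) of 12 genes, against 6.91% of all windows and 13.6% of those of tested genes. TGACG, a shorter word that overlaps TGACNNNGC and TGACGTCA, was in 40% of the windows of proteasome genes and in 26.5% of those of tested genes. GGGCGG was in 55% and 56.4%, CCAAT in 32.5% and 35.1%, CACGTG in 7.5% and 8.31%, GAANNTTC in 5% and 5.13%, AAAATGGC in 2.5% and 1.18%, and TGACGTCA and AAGATGGC in 0 of the 40 windows and in 2.59% and 2.08%. Both strands were searched for each word. A match is a run of letters, not a site shown to be bound.

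The libraries held between 16006081 and 19286090 counts on genes, and 3 counts equal 0.156 to 0.187 CPM (a gene's count scaled to the library total, here with TMM factors). Ikzf2 (chromosome 1, 69531207 to 69687351) stood at 283 and 271 CPM in WT and at 10.9 and 26.5 CPM in KO, so the labels held for the targeted gene. Its log2 fold change was -3.89 (SE 0.48, edgeR's quasi-likelihood test adjusted p = 0.332, DESeq2 adjusted p = 1.13e-13). KO replicate 1 stood apart from the other 3 libraries in sex-linked genes. It had Xist at 833 CPM against 0.35 to 0.60 CPM and Ddx3y at 0.062 CPM against 70.1 to 110 CPM. The 2 KO libraries thus differed in the sex that these genes mark. Sex cannot be told apart from other differences between these 2 libraries, and its part in the values below was not tested. The progenitor markers of the sorted cells, 8 of 8 tested, summed to 2955, 3026, 2588 and 3059 CPM. These values are for WT replicate 1, WT replicate 2, KO replicate 1 and KO replicate 2, the order used throughout. Myb gave 1253, 1381, 1367 and 1336 CPM of these sums. In both KO libraries 3 of the 8 markers were lower and 0 higher (19.1% and 18.1% of all tested genes). Marker sums of other cells also differed between libraries: 11 of 12 mature neutrophil markers summed to 859, 4031, 13070 and 18490 CPM, with 8 higher in each KO library than in either WT library (18.1% of all tested genes). The 10 dendritic cell markers summed to 325, 189, 1864 and 410 CPM. Of the 7 tested, 4 were higher and 0 lower in both KO libraries (18.1% and 19.1% of all tested genes). In KO replicate 1 most of the sum came from H2-Aa, H2-Ab1, H2-Eb1 and Cd74, with 397, 268, 282 and 821 CPM. Itgax stood at 37.1, 2.12, 10.5 and 5.58 CPM and Xcr1 at 0.18 to 0.32 CPM. Of the dendritic sum Flt3, also counted among the progenitor markers, gave 248, 153, 69.1 and 286 CPM. Erythroid markers summed to 2.35 to 2.78 CPM, with 4 of 9 at 0 in every library, B cell markers to 17.9 to 35.8 CPM, and T and NK cell markers to 66.1 to 134.6 CPM, with 2 at 0 in every library. A single gene made up nearly all of the last 2 sums. Cd79b gave 16.9 to 33.8 CPM of the B cell sum, and Nkg7 64.8 to 133 CPM of the T and NK cell sum. In such bulk libraries fewer cells of a type and less RNA per cell cannot be told apart, and the part of other cells in the values below was not tested.

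Of the 45 proteasome genes 43 passed the low-count filter and were tested among 12623 genes. None was called: edgeR's quasi-likelihood test called 0 of 43 at an adjusted p of 0.05, as it did for 0% of all tested genes. DESeq2's Wald test called 0 proteasome genes while calling 2.62% of 13422 genes. Voom in limma called 0 proteasome genes and 0 of all tested genes. At an unadjusted edgeR p under 0.05 the count was 0 of 43, against 7.67% of all genes, and the smallest unadjusted p was 0.132, for Psmb5. All 43 lay within 1.5-fold of WT, as did 77% of all tested genes and 88.3% of the tested genes with a mean of at least 20 CPM. The log2 fold changes ran from -0.48 to 0.14, with standard errors from 0.18 (Psmd5) to 0.42 (Psma5), so differences of this size could not be told from 0 with 2 libraries per group.

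**Figure D1:**
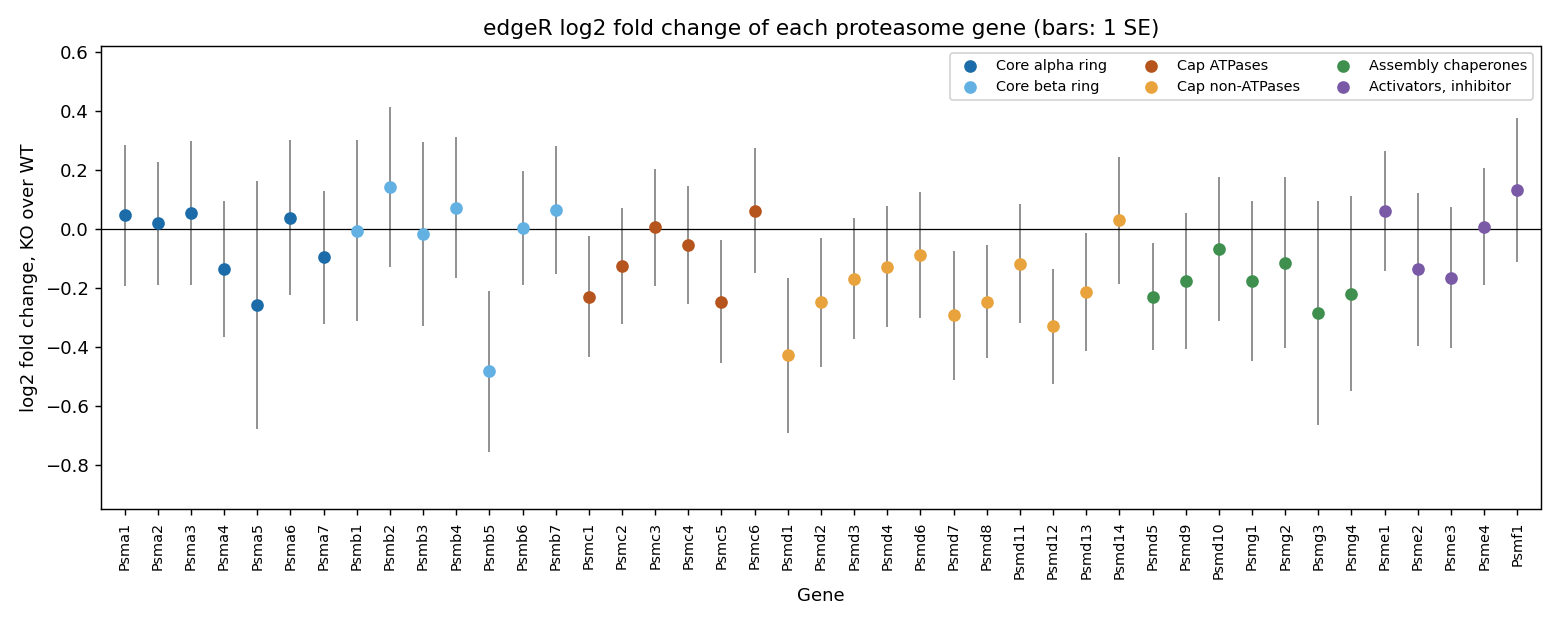
The log2 fold change of KO over WT from edgeR (vertical axis) for each of the 43 tested proteasome genes (horizontal axis), coloured by role, with bars of 1 SE and n = 2 libraries per group. The points run from -0.48 for Psmb5 to 0.14 for Psmb2; 10 of the 11 cap non-ATPases and 7 of the 7 assembly chaperones lie below 0, while core genes lie on both sides.

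Within this narrow range cap and assembly genes lay mostly below 0 and core genes on both sides. For core and assembly genes this depended on the KO library used. Cap genes lay below 0 in 17 of 17 without KO replicate 1 and in 13 of 17 without KO replicate 2. Without KO replicate 1 the medians of core, cap and assembly genes were -0.22, -0.17 and -0.46. Without KO replicate 2 these medians were 0.21, -0.13 and 0.062. The counts that follow used all 4 libraries unless stated. Log2 fold changes below 0 were found for 29 of the 43 genes (50.5% of all tested genes), with a median of -0.12 against -0.0043 over all genes. Of the cap genes 14 of 17 lay below 0 with a median of -0.17, as did 7 of 7 assembly chaperones with a median of -0.18. Core genes split into 6 below and 8 above 0 with a median of 0.0097, and the activators and inhibitor into 2 below and 3 above with a median of 0.0075. With library sizes in place of TMM factors the split moved to 38 of 43 below 0 and to 11 of 14 in the core, since this scaling shifted the median of all genes to -0.069. In 12 of 43 genes (27.9%) both KO libraries lay below both WT libraries, against 19.1% of all tested genes. The opposite, both KO libraries above both WT libraries, was found for 0 of 43, against 18.1%. Of the 12 genes, 10 were cap genes, 1 was the core gene Psmb5 and 1 was the cap chaperone Psmd5. These counts rested on single libraries: without KO replicate 1, 37 genes lay below WT (37.1% of all genes) and 0 above, and without KO replicate 2, 13 lay below (39%) and 20 above (38.1%). Without WT replicate 2, 22 lay below (32.6%).

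**Figure D2:**
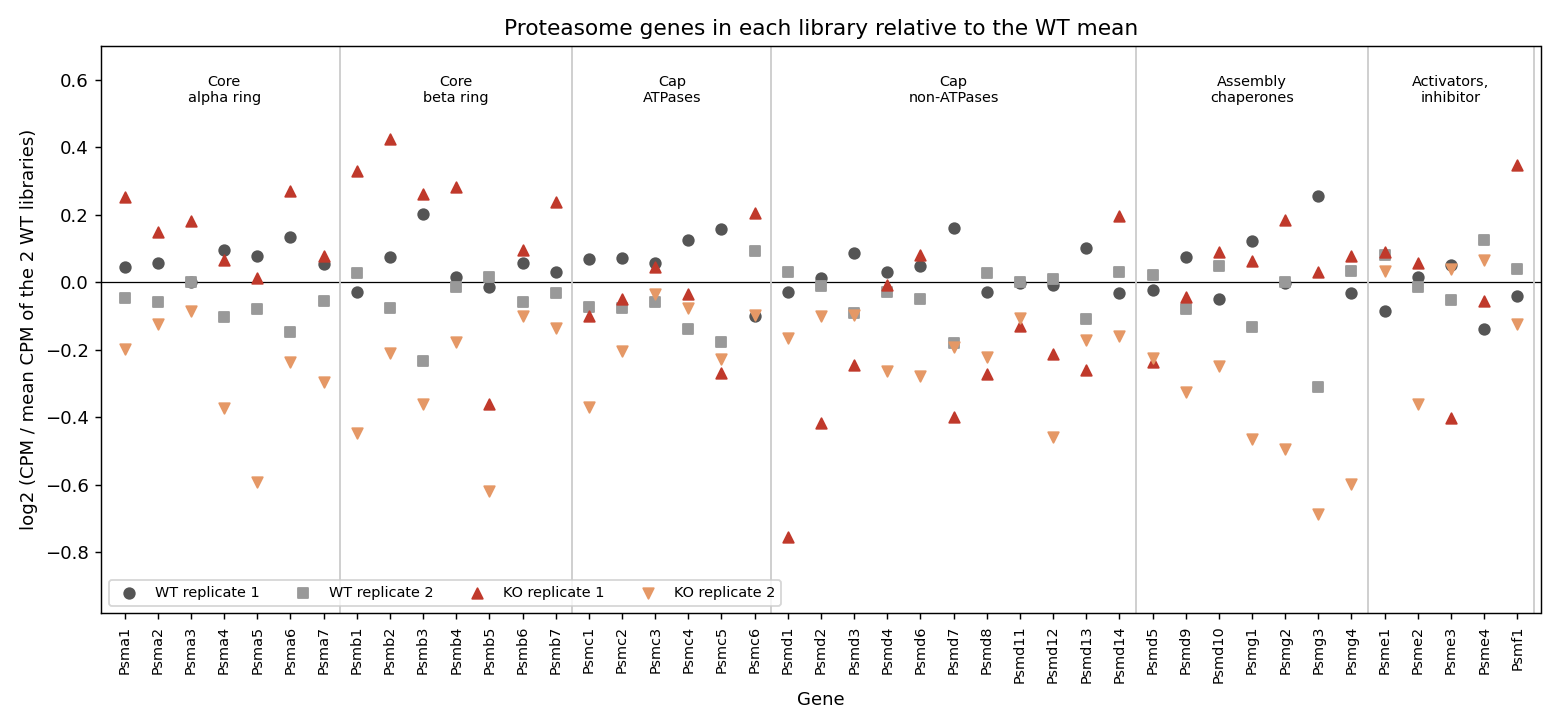
Each library's CPM relative to the mean of the 2 WT libraries on a log2 scale (vertical axis) for the 43 tested proteasome genes (horizontal axis), grouped by role. KO replicate 2 is the lowest library in all 14 core genes, while KO replicate 1 is the lowest in 7 of the 11 cap non-ATPases (30.7% of all tested genes), a count that falls to 4 of 11 with library sizes alone.

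The core genes separated the KO libraries from each other rather than the genotypes. KO replicate 2 was the lowest of the 4 libraries in 14 of 14 tested core genes (26.3% of all tested genes), and KO replicate 1 was the highest in 11 of 14 (30.4%). KO replicate 1 exceeded KO replicate 2 in 14 of 14, by a median of 0.44 on the log2 scale, while WT replicate 1 exceeded WT replicate 2 by a median of 0.11. KO replicate 2 was lowest in all 14 also with DESeq2 size factors and with library sizes alone. The cap non-ATPases did not keep their order: KO replicate 1 was the lowest library in 7 of 11 and KO replicate 2 in 4 of 11 with TMM factors, and this turned to 4 and 7 with library sizes alone. The core's median log2 fold change depended on which KO library was used: it was -0.22 without KO replicate 1 and 0.21 without KO replicate 2.

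In the alpha ring, whose subunits gate the entry to the core, Psma6 (chromosome 12, 55384222 to 55418459) had the highest mean on the CPM scale, which is not divided by length, with 249, 205, 273 and 192 CPM. KO replicate 1 was the highest and KO replicate 2 the lowest library, and the log2 fold change was 0.04 (SE 0.26). Psma3 (chromosome 12, 70969283 to 70995877) had the most positive change of the ring, 0.05 (SE 0.24), from 28.0, 28.0, 31.7 and 26.4 CPM. Its WT libraries lay between the KO libraries. Psma5 (chromosome 3, 108256926 to 108279952) had the most negative, -0.26 (SE 0.42), from 10.4, 9.28, 9.90 and 6.52 CPM. Only KO replicate 2 was low for Psma5, and without it the log2 fold change was 0.01. Psma1, Psma2, Psma4 and Psma7 had log2 fold changes of -0.14 to 0.05.

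In the beta ring the constitutive active subunits did not share a direction. Psmb5 (chromosome 14, 54614120 to 54617995), which cuts after hydrophobic residues and is the main target of proteasome inhibitor drugs, stood at 24.7, 25.2, 19.4 and 16.3 CPM. Both KO libraries lay below both WT libraries, and the log2 fold change was -0.48 (SE 0.27, edgeR adjusted p = 0.788, DESeq2 adjusted p = 0.843), the most negative of the family. It ranged from -0.62 to -0.36 when each library was left out in turn. Psmb6 (chromosome 11, 70525324 to 70527858), which cuts after acidic residues, stood at 113, 104, 116 and 101 CPM, with a log2 fold change of 0.0011 (SE 0.19) and overlapping groups. Psmb7 (chromosome 2, 38588046 to 38643952), which cuts after basic residues, stood at 131, 125, 151 and 116 CPM, with a log2 fold change of 0.06 (SE 0.22) and overlapping groups. RefSeq lists pseudogene copies of Psma5, Psmb5, Psmb6 and Psmb7 that are not rows of the count tables, so reads of these genes could have been lost to or taken from the copies.

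Of the beta subunits without an active site, Psmb1 (chromosome 17, 15475721 to 15498276) had the highest mean, with 222, 231, 284 and 166 CPM. Its KO libraries lay on either side of WT, and its log2 fold change of -0.0070 (SE 0.31) turned to 0.0040 with DESeq2 size factors. The largest difference between the KO libraries among the 43 tested genes was that of Psmb1, 0.77 on the log2 scale. Psmb2 (chromosome 4, 126677637 to 126709715), with 138, 124, 176 and 113 CPM, had the most positive log2 fold change of the family, 0.14 (SE 0.27). It turned to -0.21 without KO replicate 1. Psmb3 and Psmb4 followed the same order of the KO libraries, with log2 fold changes of -0.02 and 0.07.

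Both members that did not pass the filter were core genes of other tissues. Psma8, an alpha subunit of the testis, had raw counts of 8, 1, 0 and 29, and Psmb11, a beta subunit of the thymic cortex, had 2, 4, 0 and 0. For Psmb11 a count of 4 was the highest, and a count of 0 allows up to 3 counts, so no fold is given.

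Among the cap genes the non-ATPases had the lower median. Of the 11 non-ATPases 8 were lower in both KO libraries (19.1% of all tested genes), and 10 had a log2 fold change below 0, with a median of -0.22. With DESeq2 size factors 6 of 11 were lower in both. Psmd1 (chromosome 1, 86064619 to 86139295), a large scaffold of the cap's base, stood at 200, 208, 121 and 182 CPM. KO replicate 1 was far below the rest and KO replicate 2 closer to WT, and the log2 fold change was -0.43 (SE 0.26, edgeR adjusted p = 0.809). It was -0.16 without KO replicate 1 and -0.75 without KO replicate 2. Psmd2 (chromosome 16, 20651122 to 20663414), the other large scaffold, where ubiquitin shuttle factors dock, had the highest mean, with 255, 251, 189 and 236 CPM. Its log2 fold change was -0.25 (SE 0.22), again with KO replicate 1 lowest; without that library it was -0.10.

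Psmd12, Psmd8 and Psmd11, also lower in both KO libraries, were chosen for description after their values were seen. Psmd12 (chromosome 11, 107479528 to 107498036), a lid scaffold, had 93.9, 95.02, 81.5 and 68.8 CPM and a log2 fold change of -0.33 (SE 0.19, edgeR adjusted p = 0.797), which was -0.21 without KO replicate 2. Psmd8 (chromosome 7, 29174187 to 29180673), the last lid subunit to join, had 171, 177, 144 and 149 CPM and a log2 fold change of -0.25 (SE 0.19). Psmd11 (chromosome 11, 80428615 to 80473248), whose amount limits assembled proteasomes in some stem cells, had 48.8, 48.9, 44.7 and 45.4 CPM and a log2 fold change of -0.12 (SE 0.20). For Psmd8 and Psmd11 the gap between the genotypes was wider than that between replicates, while the KO libraries of Psmd12 were about as far apart as the genotypes. Psmd3, Psmd7 and Psmd13 were also lower in both KO libraries, with log2 fold changes of -0.17, -0.29 and -0.22, which were -0.077, -0.11 and -0.11 without WT replicate 1. The exception to the direction was Psmd14 (chromosome 2, 61711694 to 61800376), the deubiquitinase that removes the ubiquitin chain, with 138, 144, 161 and 126 CPM and a log2 fold change of 0.03 (SE 0.22). Psmd4, a ubiquitin receptor, and Psmd6 overlapped between groups, with log2 fold changes of -0.13 and -0.09.

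The 6 ATPases, the ring that unfolds the substrate, lay nearer to 0, with a median log2 fold change of -0.091 and 2 of 6 lower in both KO libraries (19.1% of all tested genes). Psmc3 (chromosome 2, 91054016 to 91059438) had the highest mean, with 196, 181, 195 and 184 CPM and a log2 fold change of 0.0054 (SE 0.20). Psmc5 (chromosome 11, 106256185 to 106263112) had the most negative change, -0.25 (SE 0.21), from 131, 104, 97.5 and 100 CPM. Its WT replicate 2 stood close to the KO libraries, and without WT replicate 1 the log2 fold change was -0.069. Psmc1 (chromosome 12, 100110202 to 100123364), with 135, 123, 120 and 99.7 CPM, was the other ATPase lower in both KO libraries, with a log2 fold change of -0.23 (SE 0.20), which was -0.37 without KO replicate 1 and -0.10 without KO replicate 2. Psmc6 (chromosome 14, 45329823 to 45349074) had the most positive, 0.06 (SE 0.21), from 115, 131, 141 and 115 CPM with overlapping groups. Psmc2 and Psmc4 had log2 fold changes of -0.13 and -0.06.

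**Figure D3:**
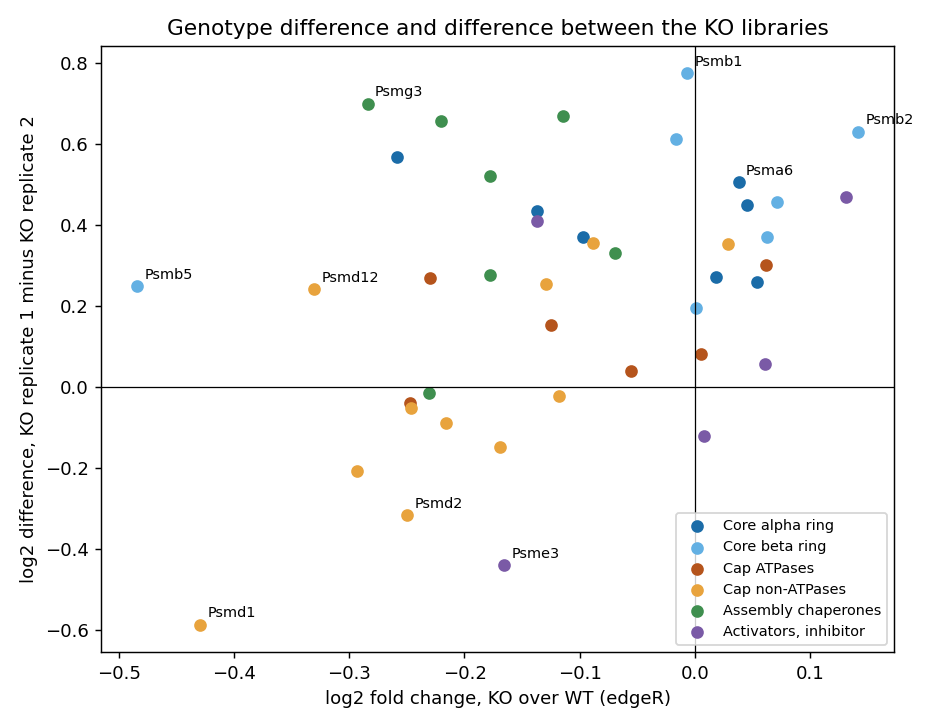
For each tested proteasome gene, the edgeR log2 fold change of KO over WT (horizontal axis) and the log2 difference between KO replicate 1 and KO replicate 2 (vertical axis, log2 of CPM plus 0.5), coloured by role with the extreme genes named. Core genes all lie above 0 on the vertical axis, with a median of 0.44, and 7 of the 11 cap non-ATPases lie below 0 there, with Psmd1 at -0.59, but 4 of 11 with library sizes alone.

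The assembly chaperones were lowest in KO replicate 2 in 6 of 7 genes, the exception being Psmd5. Psmd5 (chromosome 2, 34852087 to 34870965), a chaperone of the cap's base with the highest mean of the chaperones, stood at 87.8, 90.6, 75.7 and 76.4 CPM. The groups did not overlap, the KO libraries were nearly equal, and the log2 fold change was -0.23 (SE 0.18, edgeR adjusted p = 0.870). Psmg3 (chromosome 5, 139823613 to 139826894), which helps build the alpha ring, had the most negative change, -0.28 (SE 0.38), from 28.3, 19.2, 24.3 and 14.7 CPM. The genotypes overlapped for Psmg3, and its log2 fold change turned to 0.03 without WT replicate 1 or without KO replicate 2. The 4 core chaperones had a median log2 difference of 0.66 between KO replicate 1 and KO replicate 2, and the cap chaperones Psmd9 and Psmd10 had 0.28 and 0.33. The median of all 7 chaperones was -0.46 without KO replicate 1 and 0.06 without KO replicate 2. Psmd9, Psmd10, Psmg1, Psmg2 and Psmg4 had log2 fold changes of -0.22 to -0.07.

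Activator genes showed no common direction. Psme1 (chromosome 14, 55578494 to 55581527), a subunit of the interferon-induced activator, had the highest mean, with 230, 258, 259 and 249 CPM and a log2 fold change of 0.06 (SE 0.20). For its partner Psme2 the log2 fold change was -0.14 (SE 0.26); the gene may share reads with its annotated copy Psme2b, so its count is uncertain. Psme3 (chromosome 11, 101316213 to 101323537), the nuclear activator, had 224, 209, 164 and 222 CPM and the most negative log2 fold change, -0.17 (SE 0.24). Only KO replicate 1 was low for Psme3, and without it the value was 0.04. Psmf1 (chromosome 2, 151716062 to 151744199), known as a proteasome inhibitor, had the most positive, 0.13 (SE 0.24), from 50.5, 53.4, 66.1 and 47.7 CPM. Psme4, a further nuclear activator, had a log2 fold change of 0.0075.

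The genes of each role were then summed per library. CPM is not divided by gene length, so a sum is weighted towards long and abundant transcripts, and sums are compared between libraries and not between roles. The 16 core genes summed to 1782, 1652, 2008 and 1452 CPM, which is 1717 ± 91.9 in WT and 1730 ± 393 in KO (SD, n = 2 each). The WT values lay inside the KO range. The 17 cap genes summed to 2570, 2421, 2227 and 2211 CPM, which is 2495 ± 105 in WT and 2219 ± 11.7 in KO. Both KO libraries were below both WT libraries here, with a log2 ratio of KO to WT means of -0.17, and with 2 libraries against 2 an exact permutation test cannot reach 0.05. The 7 assembly chaperones summed to 311, 296, 301 and 234 CPM and the 5 activators and inhibitor to 615, 647, 606 and 635 CPM, each with overlapping groups. All 45 genes summed to 5278, 5015, 5142 and 4532 CPM.

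The ratio of the core sum to the cap sum was 0.694 and 0.683 in WT, 0.902 in KO replicate 1 and 0.657 in KO replicate 2. KO replicate 1 thus stood above the other 3 libraries, which lay within 0.657 to 0.694. The mean ratio gave 0.688 ± 0.0078 in WT and 0.779 ± 0.17 in KO, so the KO libraries differed from each other by more than the group means did. The ratio of the core sum to the assembly sum was 5.73, 5.59, 6.68 and 6.21, higher in each KO library than in either WT library.

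**Figure D4:**
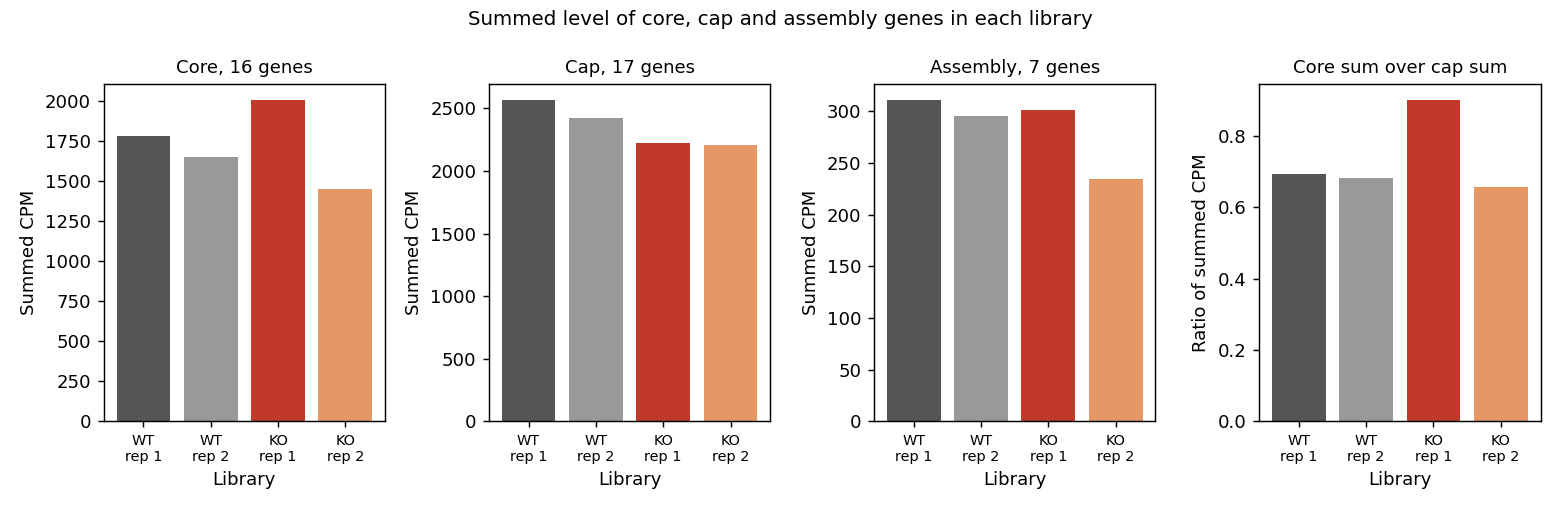
Summed CPM (vertical axes, from 0) of the 16 core, 17 cap and 7 assembly genes, and the ratio of the core sum to the cap sum, in each of the 4 libraries (horizontal axes), 1 bar per library. The cap sums of both KO libraries, 2227 and 2211 CPM, lie below those of WT, and the core-to-cap ratio stands out in KO replicate 1 at 0.902.

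Of the immunoproteasome genes, which are outside the family, Psmb8 had a larger difference than any tested proteasome gene, while Psmb9 and Psmb10 lay within the family's range. Psmb8 replaces Psmb5 in the core and stood at 298, 264, 165 and 152 CPM. Both KO libraries lay below both WT libraries, and the log2 fold change was -0.83 (SE 0.21). Psmb8 fell by DESeq2 (adjusted p = 0.0387) but was not called by edgeR's quasi-likelihood test (adjusted p = 0.444). Psmb9, the counterpart of Psmb6, had 93.6, 82.4, 76.1 and 72.8 CPM and a log2 fold change of -0.24 (SE 0.19). Psmb10, the counterpart of Psmb7, had 87.9, 86.1, 93.5 and 75.0 CPM and a log2 fold change of -0.05 (SE 0.20). Beside these values, 12 interferon-response genes summed to 408, 368, 324.5 and 379.6 CPM. Of the 10 tested, 4 were lower in both KO libraries (19.1% of all tested genes).

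Within each library the immunoproteasome gene was divided by its constitutive counterpart. Psmb8 over Psmb5 was 12.1 and 10.5 in WT and 8.47 and 9.35 in KO. Psmb9 over Psmb6 was 0.830 and 0.791 in WT and 0.656 and 0.719 in KO, and Psmb10 over Psmb7 was 0.673 and 0.688 in WT and 0.621 and 0.644 in KO. All 3 ratios were lower in each KO library than in either WT library, and the levels of the paired genes are not on a common scale because lengths differ.

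**Figure D5:**
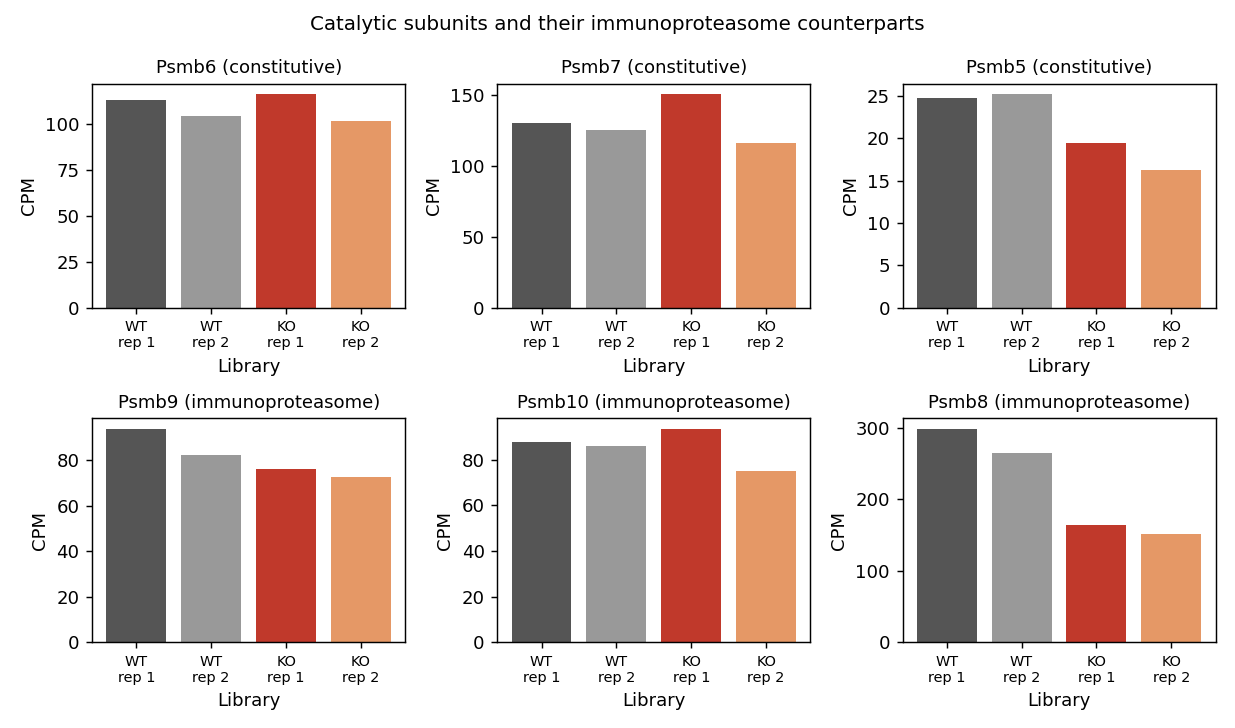
CPM (vertical axes, from 0) of the 3 constitutive active subunits (upper row) and of the immunoproteasome gene that replaces each (lower row) in the 4 libraries (horizontal axes), 1 bar per library. Psmb5 and Psmb8 are lower in both KO libraries, with 19.4 and 16.3 CPM and 165 and 152 CPM, as is Psmb9, while Psmb6, Psmb7 and Psmb10 overlap between the groups.

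The listed genes of the wider pathway, 40 tested, gave 0 calls by edgeR, as did 0% of all tested genes. DESeq2 gave 1 call among them, Psmb8, while calling 2.62% of 13422 genes. Of 10 genes that control proteasome transcription, 0 were called, and 2 were lower and 2 higher in both KO libraries, close to the shares over all tested genes (19.1% and 18.1%). Nfe2l1, the factor that raises subunit genes, had 154, 170, 97.9 and 141 CPM and a log2 fold change of -0.44 (SE 0.25, edgeR adjusted p = 0.791). Its KO values were both below WT, with KO replicate 1 the lower, and the log2 fold change was -0.20 without KO replicate 1 and -0.73 without KO replicate 2. The related factor Nfe2l2, of the oxidative stress response, had 38.4, 74.9, 98.1 and 91.1 CPM and a log2 fold change of 0.74 (SE 0.35, edgeR adjusted p = 0.726). Its WT libraries differed from each other by more than WT replicate 2 differed from KO, and leaving out WT replicate 1 or WT replicate 2 gave log2 fold changes of 0.34 and 1.31. Of 7 other subunits and assembly factors, 0 were called. Pomp, the chaperone that matures the core, had 126, 106, 125 and 80.4 CPM and was lowest in KO replicate 2, as the core genes were, and the ubiquitin receptor Adrm1 had 32.0, 30.3, 33.3 and 28.6 CPM. Of 20 genes of ubiquitin supply, shuttling and removal, 0 were called. A log2 fold change below 0 was found for 15 of them (50.5% of all tested genes), with a median of -0.10 over the 20. An unadjusted edgeR p under 0.05 was found for 1 (7.67% of all tested genes). The 9 heat shock and stress genes, which respond to unfolded protein, summed to 1848, 2239, 1585 and 3951 CPM. Of this sum Hspa5 gave 738, 984, 720 and 1810 CPM. In both KO libraries 3 of the 9 were higher and 1 was lower (18.1% and 19.1% of all tested genes). Hspa1b, at 0.40, 1.54, 6.25 and 73.9 CPM, was called higher by DESeq2 (adjusted p = 0.0379). It was not called by edgeR's quasi-likelihood test (adjusted p = 0.465).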

How the data were processed

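RNA-seq of 4 libraries, 2 Ikzf2 WT and 2 Ikzf2 KO, was used; groups and replicate numbers came from the sample titles. The authors deposited raw counts per gene symbol, 1 table per library, plus 5 summary rows that name no gene (69.3% to 72.4% of counts), which were left out. Per the submitters' processing notes, build mm10 was used with HTSeq, Picard, MACS2, Bowtie2 2.2.5 and STAR 2.3.0; their roles, the annotation and the strand setting are not stated there, so reads of overlapping genes cannot be told apart. The ATAC-seq samples were not analysed here. In R 4.3.3, 12623 genes passed filterByExpr in edgeR 4.0.16, and were scaled by TMM and tested with the robust quasi-likelihood F-test, Benjamini-Hochberg adjusted over all of them at 0.05. SE is the log2 fold change's size over the square root of F. Voom in limma 3.58.1 and DESeq2 1.42.0, the latter on 16651 genes with any count, were alternatives, with other scalings, no filter, a replicate block and each library left out. Replicates differed by more than counting noise (chi-square per degree of freedom 80.5 in WT, 109 in KO). Log2 differences between libraries used CPM plus 0.5. Exon lengths were not used here, so summed levels are in CPM. The scripts were tested on simulated data. Coordinates and promoters are RefSeq's for GRCm38.p6, the assembly mm10 names. The members and gene lists were chosen with earlier results of these data known. Named with values in every library are the active subunits, in each role the gene of highest mean and those of most positive and most negative change, members not tested, and Ikzf2, Psmb8, Psmb9, Psmb10, Pomp, Adrm1, Nfe2l1 and Nfe2l2; others were chosen after their values were seen.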

Additional observations from a re-analysis of the deposited data

How the results depend on the processing

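The count of 0 called proteasome genes held in all 10 alternatives. Over all genes DESeq2 called 209 higher and 143 lower, and the fit without a filter 3 and 1. Voom, DESeq2 size factors and library sizes alone called 0 genes of any kind, so their 0 was fixed in advance. The same was so without KO replicate 1 or without KO replicate 2. Fits that leave out a library have 1 library in an arm, and their calls are not counted as support. With the replicate number as a block, 8 genes were called higher and 3 lower, 0 of them proteasome genes, and the family's median log2 fold change was -0.13 against -0.12; the numbers are not known to pair the libraries, and same-numbered libraries' deviations correlated at 0.20 over genes. Library sizes alone moved the cap's median to -0.24 and its summed log2 ratio to -0.23, while the median of all genes moved to -0.069. Relative to the median of all genes, the cap's median was -0.168 with library sizes alone and -0.165 with TMM factors. Leaving out each library in turn gave medians of -0.21 to 0.056 for the family, -0.22 to 0.21 for the core, -0.21 to -0.099 for the cap, -0.46 to 0.062 for the assembly chaperones and -0.11 to 0.16 for the activators and inhibitor. The summed log2 ratios ran from -0.24 to 0.23 for the core, from -0.21 to -0.13 for the cap and from -0.37 to -0.013 for the assembly chaperones, and that of the core-to-cap ratio (0.16) from -0.067 to 0.39. With a library left out, genes whose remaining KO libraries all lay below the remaining WT libraries numbered 13 to 37, against 31% to 39% of all tested genes. Genes with all of them above numbered 0 to 20, against 30.5% to 38.1%. These counts were chosen after seeing the data.

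The sign turned for the following genes. With library sizes alone the log2 fold change became -0.061 for Psmb6, -0.020 for Psma6, -0.0060 for Psma3, -0.058 for Psmc3, -0.030 for Psmd14 and -0.0013 for Psme1, a scaling that lowers the median of all genes. For Psmb6 it was -0.00094 with voom and -0.00098 with the block. For Psmb1 it was 0.0014 with DESeq2, 0.0040 with its size factors and 0.0018 without a filter, and for Adrm1 0.00014, 0.0022 and 0.00050. Leaving out each library in turn gave -0.097 to 0.095 for Psmb6, -0.13 to 0.24 for Psmb7, -0.24 to 0.27 for Psma6, -0.082 to 0.18 for Psma3, -0.59 to 0.011 for Psma5, -0.44 to 0.33 for Psmb1, -0.21 to 0.42 for Psmb2, -0.037 to 0.064 for Psmc3, -0.096 to 0.21 for Psmc6, -0.16 to 0.19 for Psmd14, -0.69 to 0.030 for Psmg3, -0.020 to 0.16 for Psme1, -0.12 to 0.35 for Psmf1, -0.40 to 0.040 for Psme3, -0.21 to 0.10 for Psmb10, -0.53 to 0.11 for Pomp and -0.12 to 0.096 for Adrm1. The cause was not tested. Summed CPM without division by length is the value reported, so it was not run as an alternative. With an arm of 1 library, that library is assumed to vary like the other group.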

Other observations

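The order of the KO libraries seen in the core genes was looked for in other abundant housekeeping genes, chosen after the data were seen. Of 77 tested cytosolic ribosomal protein genes, 62 (80.5%) were lowest in KO replicate 2, against 26.3% of all tested genes, and KO replicate 1 exceeded KO replicate 2 in 63 of 77 by a median of 0.46 on the log2 scale. Genes of ubiquitin supply, shuttling and removal had the opposite order, with 13 of 20 lowest in KO replicate 1, against 30.7% of all tested genes. AI314180, which encodes the proteasome adaptor Ecm29, was listed at 640 and 735 CPM in WT and at 270 and 674 CPM in KO, and Shfm1, the smallest cap subunit, at 237 and 206 CPM in WT and at 370 and 222 CPM in KO, so both were set apart by KO replicate 1.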
